A study of Mus musculus with 6 samples.

Results

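The genes described here are 10 chemokines of glia and microglia, 5 of the CC family (Ccl2, Ccl3, Ccl4, Ccl7 and Ccl12) and 5 of the CXC family (Cxcl1, Cxcl10, Cxcl12, Cxcl14 and Cxcl16). They were chosen by gene symbol, and all 10 were found among the 22851 gene rows of the deposited count table. The study compared cultured cells of 2 genotypes on the C57BL/6J background, WT and Edf1 KO, to find the genes that depend on Edf1 while multiciliated ependymal cells form. In both groups radial glial cells, the neural stem cells of the ventricle wall, were taken from the brains of mice aged P0 to P3, grown in medium with 10% FBS and then kept for 6 days in medium without serum to make them differentiate. The knockout mice were made with CRISPR/Cas9, and each genotype had 3 libraries. How many animals gave each library is not given in the labels, and the series design calls the libraries biological replicates.

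Chemokines are small secreted proteins that direct the migration of cells through G protein-coupled receptors. The family names describe the first conserved cysteines of the protein, which are adjacent in CC chemokines and separated by a residue in CXC chemokines. In the brain, Ccl2, Ccl7 and Ccl12 attract monocytes, Ccl3 and Ccl4 are made largely by microglia, Cxcl1 attracts neutrophils, Cxcl10 is induced by interferons, and Cxcl12 guides progenitors and is made constitutively. Cxcl14 is a constitutively expressed chemokine, and Cxcl16 is made as a membrane-bound protein that can be shed. Ependymal cells are the ciliated lining of the ventricles.

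Of the 10 chemokines, 7 had enough counts to be tested, and 2 of these 7 were higher in the knockout in the quasi-likelihood test of edgeR, with adjusted p under 0.05. They were Cxcl10, 2.45-fold higher, and Ccl2, 2.24-fold higher. No tested chemokine was called lower. The 2 calls are 28.6% of the tested chemokines, and 26.9% of all 14243 tested genes were called in the same comparison (12.7% higher and 14.2% lower), so the number of calls among the chemokines was close to that of the table as a whole. The median log2 fold change of the 7 tested chemokines was 0.40, and that of all tested genes was 0.0029. Cxcl12, among the 7, passed the low-count filter through its knockout libraries, so this median is no support for a rise.

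The libraries held 13071766 to 28087006 counts. At that depth 1 read was worth 0.0354 to 0.0777 CPM, which sets the precision of the rarer chemokines. Edf1, the targeted gene, fell from 82.8 ± 2.85 to 11.3 ± 1.72 CPM (mean ± SD, n = 3 each), lower in all 3 knockout libraries. WT replicate 2 had the smallest total and stood apart from WT replicates 1 and 3 on the second principal component, which held 16.1% of the variance. It also stood apart on the first component (60.7% of the variance), at -32.45 against -18.14 for both WT replicates 1 and 3. Results that change when it or another library is left out are given with that value. The labels name the cells multiciliated ependymal cells, and all 14 marker genes listed for that cell type had enough counts to be tested. Their summed expression was 2955 to 3126 CPM in WT against 1772 to 1960 CPM in the knockout.

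The chemokines differed widely in level. Per kilobase of exon in the GENCODE M21 annotation of GRCm38, the WT means ran from 20.7 ± 1.71 RPKM for Cxcl14 to 0.0554 ± 0.0283 RPKM for Cxcl12 (SD, n = 3). Cxcl14 was followed by Ccl3 at 10.01 ± 0.676 RPKM and Cxcl16 at 9.47 ± 1.16 RPKM, and the WT libraries of these last genes overlapped. Ccl4 at 4.11 ± 1.03 RPKM, Cxcl10 at 1.69 ± 0.343 RPKM, Ccl2 at 0.939 ± 0.310 RPKM and Ccl12 at 0.432 ± 0.130 RPKM came next, each without overlap between its WT libraries and those of the gene below it. Cxcl1, Ccl7 and Cxcl12 had the lowest levels, with overlapping WT libraries. In the knockout Ccl3 and Cxcl16 changed places, at 6.91 ± 2.44 and 10.2 ± 0.621 RPKM, as did Ccl7 and Cxcl1. The length used for Cxcl12, 8176 bases, is the union of all its annotated exons and lowers its level where a shorter transcript is the one expressed.

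**Figure D1:**
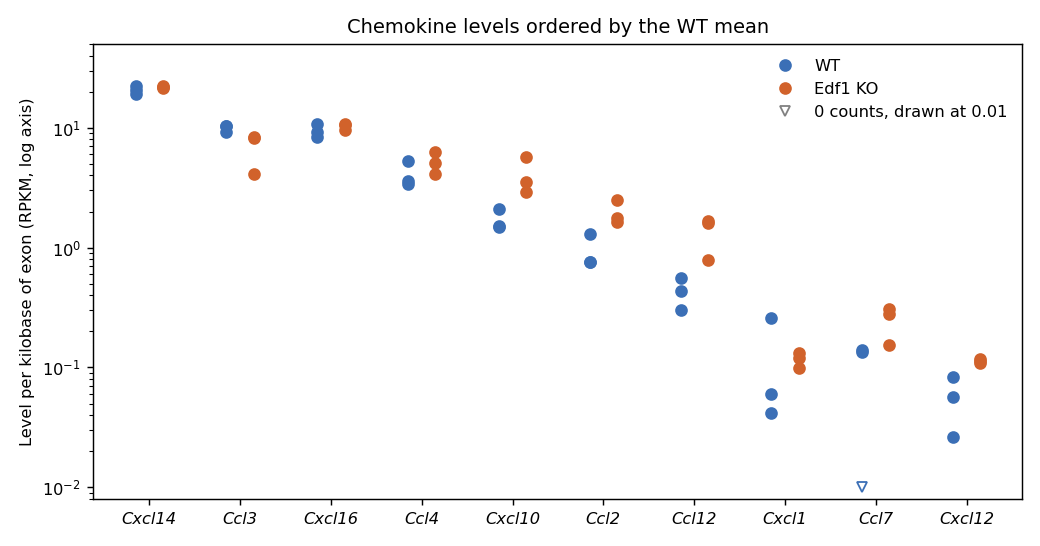
Level of each chemokine per kilobase of exon (RPKM, log axis) in each library, ordered by the WT mean, with WT in blue and Edf1 KO in orange. The points run from about 20 RPKM for Cxcl14 to at most 0.309 RPKM for Cxcl1, Ccl7 and Cxcl12, and the open triangle marks the library with 0 counts of Ccl7.

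Among the CC chemokines, the monocyte attractants Ccl2, Ccl7 and Ccl12 share a cluster on chromosome 11. In GRCm38 Ccl2 lies at chr11:82035571-82037453, Ccl7 at chr11:82045712-82047525 and Ccl12 at chr11:82101845-82103400, all on the plus strand. Ccl2, also known as monocyte chemoattractant protein, had 23, 19 and 16 counts in WT replicates 1, 2 and 3 and 30, 36 and 81 counts in knockout replicates 1, 2 and 3. These correspond to 0.866, 1.48 and 0.865 CPM in WT against 1.84, 2.005 and 2.87 CPM in the knockout. All knockout libraries were above all WT libraries, and knockout replicate 3 was the highest. The log2 fold change was 1.16 (SE 0.298, 95% interval 0.52 to 1.81) and the edgeR adjusted p was 0.0118. The call was lost without WT replicate 1 (log2 fold change 1.02, edgeR adjusted p 0.0591) and without knockout replicate 3 (0.91, edgeR adjusted p 0.0845).

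Ccl7 and Ccl12, the neighbours of Ccl2, were too rare for the test. Ccl12 had 8, 3 and 3 counts in WT and 14, 16 and 12 in the knockout, or 0.301, 0.233 and 0.162 CPM against 0.860, 0.891 and 0.425 CPM. The groups did not overlap, and knockout replicate 3 was the lowest knockout library here, the reverse of its place for Ccl2. The ratio of the summed counts per effective library size was 2.78 (exact 95% interval 1.49 to 5.51, which covers counting error only). In the fit without a low-count filter, Ccl12 had a log2 fold change of 1.52 and an edgeR adjusted p of 0.0552, so it did not pass there. Ccl7 had 3, 0 and 2 counts in WT and 2, 4 and 7 in the knockout, and a WT library with 0 counts allows up to 0.233 CPM. Its ratio of 2.41 had an exact 95% interval of 0.807 to 8.64, and a difference was not detectable at this depth.

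Ccl3 and Ccl4, also known as macrophage inflammatory proteins 1-alpha and 1-beta, lie close together on chromosome 11, at chr11:83647844-83649355 on the minus strand and chr11:83662584-83664683 on the plus strand. Ccl3 had 7.98, 7.07 and 7.94 CPM in WT replicates 1, 2 and 3 and 3.13, 6.40 and 6.33 CPM in the knockout. Knockout replicate 1 was far below the other two, and all knockout libraries were below all WT libraries. The log2 fold change of -0.51 (SE 0.208, 95% interval -0.97 to -0.061) did not pass the threshold after adjustment over all genes (edgeR adjusted p 0.0888). It was -0.28 without knockout replicate 1 (edgeR adjusted p 0.212) and passed without WT replicate 2 (-0.56, edgeR adjusted p 0.0449).

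Ccl4, which is often made together with Ccl3, had 2.26, 3.49 and 2.38 CPM in WT against 2.70, 3.34 and 4.14 CPM in the knockout. Its groups overlapped because WT replicate 2 was above knockout replicates 1 and 2. The log2 fold change was 0.40 (SE 0.231, 95% interval -0.11 to 0.90, edgeR adjusted p 0.233). It ran from 0.20 without knockout replicate 3 to 0.58 without WT replicate 2 and was not called in either fit. The values of these 2 neighbouring genes therefore lay on opposite sides of 0, with neither called, and the difference between them was not tested.

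**Figure D2:**
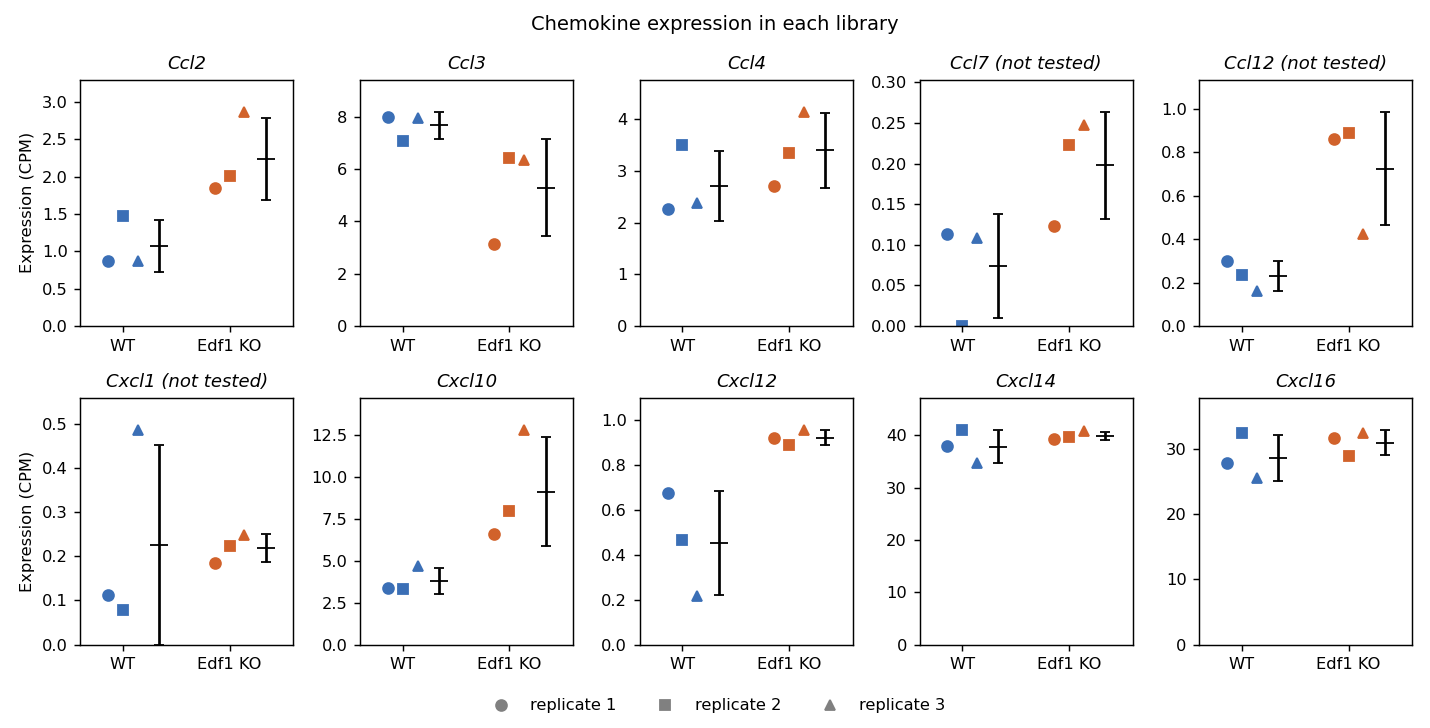
Expression in CPM of each of the 10 chemokines in every library, with a separate axis from 0 in each panel, symbols for the replicates and black bars for the mean and SD of 3 libraries. Knockout libraries lie above all WT libraries for Ccl2, Ccl7, Ccl12, Cxcl10 and Cxcl12 and below them for Ccl3, while Ccl4, Cxcl1, Cxcl14 and Cxcl16 overlap.

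Among the CXC chemokines, Cxcl10, the interferon-inducible ligand of Cxcr3, was the one called. It lies at chr5:92346638-92348889 on the minus strand. It had 90, 43 and 87 counts in WT replicates 1, 2 and 3 and 107, 143 and 361 in knockout replicates 1, 2 and 3, equal to 3.39, 3.34 and 4.70 CPM and to 6.58, 7.96 and 12.8 CPM. The lowest knockout library was above the highest WT library, and knockout replicate 3 stood above the other knockout libraries. The log2 fold change was 1.29 (SE 0.239, 95% interval 0.77 to 1.81) and the edgeR adjusted p was 0.00163. It was smallest without knockout replicate 3, at 0.94 (edgeR adjusted p 0.00821), and the call held in each of the 6 fits that left out a library. Exons of Cxcl10 share 133 bases with Art3 on the opposite strand, and whether reads were counted by strand is not given in the sources used here. Art3 had 54 to 107 counts in the WT libraries and 87 to 154 in the knockout libraries over its whole length.

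The bases before the Cxcl10 start site are shown with those of Cxcl1 and Ccl3, because the 3 genes contrast a called rise, a level near the counting floor and a value below 0 that was not called. RefSeq promoter sequences (GRCm38.p6) were matched for 6 of the 10 chemokines, Ccl3, Ccl12, Cxcl1, Cxcl10, Cxcl12 and Cxcl14. Ccl2, the other called chemokine, had no sequence to search. The bases after the start site were found in a GENCODE transcript of the gene for all of these except Ccl3. The 250 bases before each start site were searched on both strands for the NF-kB consensus motif, for the core of the interferon-stimulated response element (GAAA, any 2 bases, GAAA) and for the AP-1 site (TGANTCA). Capitals mark every match, and matches to the NF-kB motif that are shifted by 1 base overlap. The sequences are from chr5:92348890-92349139 (minus strand) for Cxcl10, chr5:90890995-90891244 (plus strand) for Cxcl1 and chr11:83649379-83649628 (minus strand) for Ccl3.
Cxcl10: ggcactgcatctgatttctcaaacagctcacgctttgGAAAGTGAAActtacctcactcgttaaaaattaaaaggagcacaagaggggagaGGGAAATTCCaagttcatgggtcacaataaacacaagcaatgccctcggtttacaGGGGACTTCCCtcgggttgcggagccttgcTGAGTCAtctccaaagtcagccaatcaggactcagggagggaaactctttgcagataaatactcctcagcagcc
Cxcl1: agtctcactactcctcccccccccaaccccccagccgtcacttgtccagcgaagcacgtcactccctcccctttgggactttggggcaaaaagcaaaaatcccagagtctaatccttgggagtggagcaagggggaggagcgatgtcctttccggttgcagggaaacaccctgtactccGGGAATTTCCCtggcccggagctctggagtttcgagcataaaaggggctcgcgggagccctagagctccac
Ccl3: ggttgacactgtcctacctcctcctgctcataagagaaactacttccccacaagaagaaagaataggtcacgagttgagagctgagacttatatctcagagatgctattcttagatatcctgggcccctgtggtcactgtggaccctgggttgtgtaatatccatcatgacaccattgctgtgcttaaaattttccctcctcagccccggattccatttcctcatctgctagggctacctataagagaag
The Cxcl10 window holds the response element core 213 to 204 bases before the start site, 1 NF-kB match at 159 to 150 bases, 2 overlapping NF-kB matches between 104 and 94 bases and an AP-1 site at 74 to 68 bases. The Cxcl1 window holds 2 overlapping NF-kB matches between 71 and 61 bases. Of the other matched windows, that of Cxcl14 holds the response element core and those of Ccl3, Ccl12 and Cxcl12 hold none of the 3 motifs. Of all 32851 promoter windows of this length, 7.25% hold the NF-kB motif, 2.98% the response element core and 6.75% the AP-1 site. These are matches of letters, and binding was not measured. A link between the motifs and the fold changes was not tested.

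Cxcl1, which recruits neutrophils, lies at chr5:90891241-90893115 on the plus strand. It had 3, 1 and 9 counts in the WT libraries and 3, 4 and 7 in those of the knockout. WT replicate 3 was the highest of all 6 libraries in CPM, and the groups overlapped. The ratio of summed counts was 0.999 (exact 95% interval 0.435 to 2.31), so a change of up to about that interval's bounds was not detectable at this depth. Cxcl12, the guidance chemokine at chr6:117168535-117181367, had 0.678, 0.466 and 0.216 CPM in WT against 0.922, 0.891 and 0.955 CPM in the knockout. The knockout libraries lay close together above the scattered WT libraries, whose counts were 18, 6 and 4. The log2 fold change of 0.95 (SE 0.395, 95% interval 0.091 to 1.81) did not pass after adjustment (edgeR adjusted p 0.0962). It was 1.51 without WT replicate 1 (edgeR adjusted p 0.0517) and 0.62 without WT replicate 3 (edgeR adjusted p 0.278).

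Cxcl14 and Cxcl16, the best counted members of the group, showed no called difference. Cxcl14, at chr13:56288643-56296551, had 37.9, 40.9 and 34.7 CPM in WT against 39.4, 39.6 and 40.8 CPM in the knockout, and the groups overlapped. Its log2 fold change was 0.084 (SE 0.0722, 95% interval -0.073 to 0.24, edgeR adjusted p 0.432). Cxcl16, the membrane-bound ligand of Cxcr6 at chr11:70453983-70459984, had 27.9, 32.4 and 25.5 CPM in WT against 31.7, 28.8 and 32.4 CPM in the knockout. WT replicate 2 was the highest of all 6 libraries, just above knockout replicate 3, and the log2 fold change was 0.13 (SE 0.0915, 95% interval -0.073 to 0.32, edgeR adjusted p 0.345). Without WT replicate 2 it was 0.21 and passed (edgeR adjusted p 0.0412). Exons of Cxcl16 share 552 of 3021 bases with Zmynd15 on the opposite strand, and Zmynd15 had 33 to 69 counts per library against 417 to 915 for Cxcl16.

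**Figure D3:**
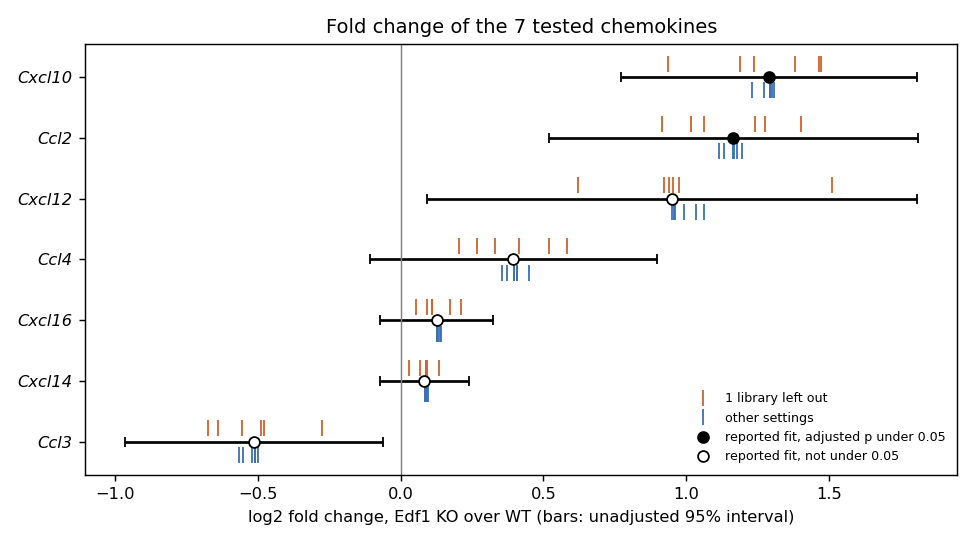
Log2 fold change of the 7 tested chemokines in the knockout over WT, with the unadjusted 95% interval, filled where the adjusted p-value was under 0.05. Orange ticks above each point are the 6 fits that left out 1 library and blue ticks below are other settings, and all ticks of a gene lie on the same side of 0 as its point.

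Across the 10 chemokines the knockout libraries were all above the WT libraries for 5 genes, all below for 1 and overlapping for 4. Ccl7 and Ccl12, among the 5, were too rare to be tested, and the shares that follow cover tested genes only. For Ccl7 the closest libraries were knockout replicate 1 at 0.123 CPM and WT replicate 1 at 0.113 CPM. The count over the 10 genes is therefore no support for a rise. Of the 7 tested, 3 were above and 1 below, while among all tested genes 21.2% lay above and 22.1% below without overlap. Among those above, Cxcl12 passed the low-count filter through its knockout libraries. It had 15, 16 and 27 counts there against 18, 6 and 4 in WT, so its place in this tally is no support for a rise. Without WT replicate 1 the number of chemokines called was 1 of 8 tested (Cxcl10), beside 2955 of all 14375 tested genes. Without WT replicate 2 it was 4 of 8 (Ccl2, Cxcl10 and Cxcl16 higher, Ccl3 lower), beside 4340 of all 14419 tested genes.

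The receptors were then examined. Of 23 chemokine receptor genes, 9 had enough counts to be tested, 2 were called higher and 1 lower (median log2 fold change 0.16), beside 12.7% higher and 14.2% lower among all tested genes. Only 1 receptor was called higher without WT replicate 3, without knockout replicate 1 or without knockout replicate 3. Ccr1, a receptor of Ccl3 and Ccl7, rose from 1.26 ± 0.355 to 2.40 ± 0.426 CPM (log2 fold change 0.96, SE 0.270, edgeR adjusted p 0.0194). Ccr2, the main receptor of Ccl2, Ccl7 and Ccl12, had 4, 0 and 1 counts in the WT libraries and 0, 1 and 2 in those of the knockout. Counts of the main Ccl2 receptor were thus near 0 in both groups.

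For the CXC ligands, Cxcr4, the signalling receptor of Cxcl12, was the receptor with the highest level per length, at 117.7 ± 2.04 RPKM in WT. It had 213 ± 3.69 CPM in WT against 230 ± 4.35 CPM in the knockout, without overlap, and its log2 fold change of 0.11 was not called (edgeR adjusted p 0.0856). Ackr3, a scavenger receptor that takes up Cxcl12, rose from 34.4 ± 2.21 to 44.4 ± 1.72 CPM (0.36, SE 0.0702, edgeR adjusted p 0.00223). Cxcr3, the receptor of Cxcl10, had 8 to 9 counts in the WT libraries and 10 to 16 in the knockout libraries (0.42, edgeR adjusted p 0.474). Cxcr2, the receptor of Cxcl1, had 0 counts in all 6 libraries, which allows up to 0.106 to 0.233 CPM per library. Cxcr6, the receptor of Cxcl16, had 0 to 5 counts. Ccrl2 (0.22) and Ccr10 (-0.33) were tested without a call. Ackr1, which binds chemokines of both families without signalling, had a log2 fold change of 0.16 (edgeR adjusted p 0.391). Exons of Ackr1 share 361 of 1405 bases with Cadm3 on the same strand, and the part of its counts from there was not tested. Ccr3 and Ackr2 had at most 2 counts in any library. The receptor called lower was Cx3cr1, a marker of microglia, which fell from 86.6 ± 5.29 to 51.4 ± 1.67 CPM (log2 fold change -0.76, edgeR adjusted p 2.94e-06).

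Other chemokines were mostly rare. Of 28 further chemokine genes 27 were in the table, 7 were tested and 3 were called higher (median log2 fold change 0.18), beside 12.7% of all tested genes. Ccl9, a CC chemokine of myeloid cells, rose from 1.48 ± 0.0641 to 2.84 ± 0.534 CPM (log2 fold change 0.94, edgeR adjusted p 0.00890). Pf4, known as platelet factor and also made by macrophages, rose from 1.09 ± 0.200 to 1.99 ± 0.0421 CPM (0.85, edgeR adjusted p 0.0250). Cx3cl1, the membrane-bound ligand of Cx3cr1, rose from 45.2 ± 0.807 to 51.2 ± 2.28 CPM (0.18, edgeR adjusted p 0.0452). The values of Ccl6, Ccl27a and Ccl25 were below 0, at -0.55, -0.29 and -0.25, and that of Cxcl5 was 0.40, with no call. The 3 higher calls became 1 in DESeq2, without WT replicate 3 and without any 1 of the knockout libraries. In the fits without knockout replicate 2 or 3, 1 gene was also called lower, as it was beside 3 higher without WT replicate 2. Of the 27 genes, 7 had no count in any library, and Ccl5, which attracts T cells, had 4 to 19 counts.

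Of 4 tested proteases that cut or shed chemokines, 2 were higher, beside 12.7% of all tested genes. Mmp2, which trims Ccl7 and Cxcl12, rose from 11.6 ± 1.56 to 25.3 ± 2.05 CPM (log2 fold change 1.13, edgeR adjusted p 7.53e-06). Adam10, which sheds Cxcl16 and Cx3cl1, rose from 142 ± 7.15 to 165 ± 4.22 CPM (0.22, edgeR adjusted p 0.00918). Adam17 (-0.073) and Mmp14 (-0.094) were not called, and Dpp4 and Mmp9 were too rare to be tested. Without knockout replicate 1 the count of 2 became 1.

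Interferon and NF-kB signalling are known to induce several of these chemokines. In the interferon list, 17 of 28 tested genes were called higher (60.7%, against 12.7% of all tested genes) and 3 lower, with a median log2 fold change of 0.25. Stat2 rose from 25.7 ± 1.19 to 41.3 ± 1.08 CPM (0.68, edgeR adjusted p 1.74e-05), and Usp18, a brake on interferon signalling, rose from 8.73 ± 2.08 to 14.3 ± 1.56 CPM (0.67, edgeR adjusted p 0.00543). Ifitm3, 1 of the 2 tested genes of highest level in the list, rose by 0.24 on the log2 scale, and the other, the receptor gene Ifngr1, fell by 0.22. Irf8, a factor of myeloid cells, fell from 26.3 ± 2.68 to 16.7 ± 1.30 CPM (-0.65). The remaining gene called lower was Cmpk2 (-0.31, edgeR adjusted p 0.00302). Among the 8 not called were Rsad2 (0.027), Irf7 (0.11) and Irf9 (-0.14). The calls numbered 13 (10 higher and 3 lower) without knockout replicate 1 and also without knockout replicate 3.

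In the list of NF-kB pathway genes and inflammatory cytokines, 3 of 23 tested genes were higher (13%, close to the 12.7% of all tested genes) and 1 lower, with a median of 0.081. The adhesion genes Vcam1 (0.33) and Icam1 (0.24) and the receptor gene Tnfrsf1a (0.16) rose, and Tlr2, a receptor of myeloid cells, fell by 0.52 on the log2 scale. Nfkb1 and Nfkbia had values of 0.023 and 0.012, with no call. The cytokine gene Tnf had 28 to 33 counts in WT and 17 to 43 in the knockout (-0.30, edgeR adjusted p 0.486), while Il1b and Il6 were too rare to be tested. The 4 calls of this list became 9 without WT replicate 2 (5 higher and 4 lower) and 2 without WT replicate 1 or any 1 of the knockout libraries.

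**Figure D4:**
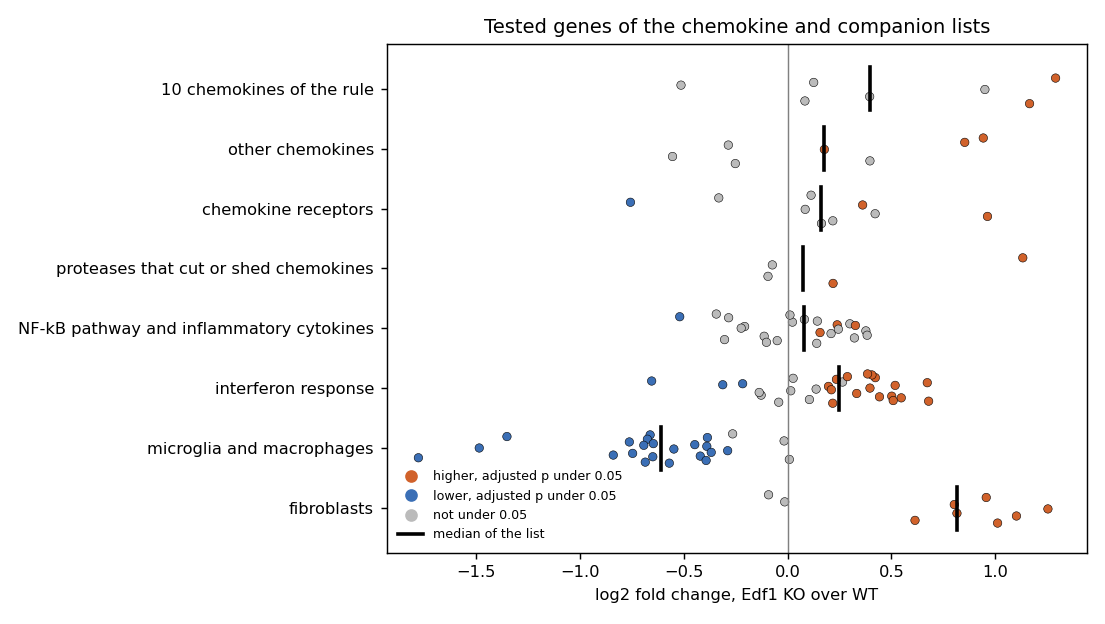
Log2 fold change of each tested gene in the 10 chemokines and in 7 companion lists, with genes called higher in orange, called lower in blue, not called in grey and the list median as a black bar. The chemokines spread from -0.51 to 1.29, the interferon genes lie mostly above 0, the microglia genes almost all below 0 and most fibroblast genes above 0.

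Cells other than ependymal cells can make these chemokines, and most tested markers of microglia, fibroblasts, and mural and endothelial cells were called. In bulk RNA, fewer cells of a type and less RNA per cell cannot be told apart. Of 24 tested microglia and macrophage markers, 21 were called lower (87.5%, beside 14.2% of all tested genes) and none higher. Their median log2 fold change was -0.61. Their summed level was 3889 to 4065 CPM in WT against 2587 to 2647 CPM in the knockout. Ctss (-0.75) and Mpeg1 (-0.65) were among the markers of highest level. The values ran from -1.78 for Gpr34 to 0.0086 for Ptprc, and Ptprc, Sall1 (-0.017) and Tmem119 (-0.26) were not called. Beside the fall of most of these markers, the values of Ccl3 (-0.51) and Ccl4 (0.40), which microglia make, lay on opposite sides of 0 without a call. Ccl2 and Cxcl10 rose. Of the 3 tested markers of border macrophages and monocytes, Mrc1 was lower (-1.03), F13a1 (-0.30) and Ms4a7 (0.069) were not called, and Ly6c2, Plac8 and Cd209f had 0 counts throughout. The 11 markers of neutrophils and lymphocytes summed to at most 0.919 CPM in any library, with Cd3e, Cd3g and S100a9 at 0, and none could be tested.

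Fibroblast markers, which belong to cells that can make Ccl2 and Cxcl12, moved the other way. Of 9 tested, 7 were called higher (77.8%, beside 12.7% of all tested genes) and none lower (median 0.82). The summed level was 148 to 172 CPM in WT against 220 to 270 CPM in the knockout. Col1a2 (0.80) and Col1a1 (1.01) rose and Islr (-0.014) was not called. Of 6 tested mural and endothelial genes 5 were higher (83.3%, beside 12.7% of all tested genes). They included Acta2 (0.30), Tagln (0.20) and Kdr (1.73), and Flt1 was lower. Summed levels were 844 to 882 CPM in WT against 1071 to 1149 CPM in the knockout. Most of this was Acta2 and Tagln, with means of 475 and 288 CPM in WT and 586 and 331 CPM in the knockout. The endothelial marker Cldn5 had 0 counts in 5 of 6 libraries and 1 in the other. Pecam1, Tek, Rgs5 and Kcnj8 had at most 16 counts in any library and Cdh5 at most 26, and none of them was tested. Astrocyte and radial glia genes went both ways, 3 higher and 4 lower of 14 (median -0.042). These are 21.4% and 28.6%, beside 12.7% and 14.2% of all tested genes. Nes was higher (0.40), Vim (0.13) and Slc1a3 (0.12) were not called, and Gfap (-0.42), Aldoc (-0.41), S100b (-0.65) and Gjb6 (-1.49) were lower. Gjb6 had 25, 17 and 20 counts in WT against 7, 5 and 12 in the knockout. It passed the low-count filter through its WT libraries, so its place among the 4 lower is no support for a fall. The summed level was 11088 to 11625 CPM in WT against 11856 to 12315 CPM in the knockout, of which Vim alone made up a mean of 6270 and 6846 CPM.

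The remaining marker lists were counted in the same way. All 14 ependymal genes were lower (median -0.87), among them Foxj1 (-0.59), Ccdc39 (-0.46) and Dnah9 (-0.35), beside 14.2% of all tested genes. Of 8 tested neuronal genes 2 were lower (25%, beside the same 14.2%), with a median of -0.14. Tubb3 was called (-0.81) and Map2 (-0.10) and Stmn2 (-0.074) were not. The other called gene was Dcx (-1.61), with 20, 10 and 16 counts in WT against 4, 5 and 7 in the knockout. Dcx passed the low-count filter through its WT libraries, so its place in this count is no support for a fall. The neuronal sum was 254 to 331 CPM in WT against 275 to 291 CPM in the knockout. Of 7 tested oligodendrocyte lineage genes 1 was higher, Cspg5 (0.34), and 1 lower, Cnp (-0.25), with Olig1 (0.12) not called. These are 14.3% each, close to the 12.7% higher and 14.2% lower of all tested genes. The median was 0.099, at 544 to 581 CPM in WT against 534 to 565 CPM in the knockout. The part that the cell types behind these markers had in the chemokine values was not tested.

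Genes with the pattern most like the called chemokines were taken as those with the smallest root mean square difference in centred log2 CPM over the 6 libraries, among 14242 other tested genes. For Ccl2 these included Ccnjl (0.166) and Cd99 (0.169), whose own log2 fold changes were 1.08 and 0.90. For Cxcl10 they were Dgka (0.213), Lox (0.240) and Celf5 (0.242), with log2 fold changes of 1.20, 1.08 and 1.43. None of these 5 genes is a chemokine. Their fold changes resemble those of Ccl2 and Cxcl10 by the way they were chosen, over the same 6 libraries.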

How the data were processed

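RNA from 3 WT and 3 Edf1 KO cultures was extracted with TRIzol and, per the labels' protocols, prepared for sequencing with the MGIEasy mRNA kit. The submitters' processing notes list FastQC 0.11.2, cutadapt 1.11, HISAT2 2.1.0 and GRCm38. The counting program, annotation, strandedness and handling of reads with several matches are not given in the sources used here. The deposited values are whole-number read counts per gene symbol, 1 column per library.

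The counts were analysed in R 4.3.3 with edgeR 4.0.16. The filterByExpr function (minimum count 10) kept 14243 of 22851 genes, TMM factors were 0.985 to 1.01, and knockout was compared with WT by the quasi-likelihood test without covariates, adjusting p-values by Benjamini-Hochberg across the tested genes, at a threshold of 0.05. A call means an adjusted p-value under that threshold. CPM uses TMM-scaled library sizes, and log2 CPM a prior count of 2. The SE was taken from the log2 fold change and the root of its F statistic, and 95% intervals are unadjusted. A count of 0 was taken to allow up to 3 counts. Fits were tested on simulated data. P-values set the difference between groups against the spread between these libraries, which the test estimates partly from all genes.

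The chemokines and companion lists were chosen with earlier results of these data known. Named genes are the chemokines, Edf1, their receptors, tested genes of the other chemokine and protease lists, the 3 largest calls and the 2 genes of highest level in the inducer lists, the 3 of highest level in marker lists, and the 3 genes most like each called chemokine; some genes that this rule names are not reported here. Genes named outside this rule, such as Art3, Zmynd15, Cx3cr1, Ccrl2, Ccr10, Flt1, Gfap, Aldoc, S100b, Gjb6, Nfkb1, Nfkbia, Tnf, Il1b, Il6 and Cldn5, were chosen after their values were seen. So were Cmpk2, Rsad2, Irf7, Irf9, Gpr34, Ptprc, Sall1, Tmem119, Pecam1, Tek, Rgs5, Kcnj8, Cdh5 and Dcx. DESeq2 1.42.0, limma voom 3.58.1, other scalings and filters, a replicate block, left-out libraries and a threshold of 0.01 were tried.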

Additional observations from a re-analysis of the deposited data

How the results depend on the processing

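Cxcl10 kept its call in all 14 alternatives, with log2 fold changes of 0.94 to 1.47 and adjusted p-values of 1.14e-06 to 0.0103 by edgeR, DESeq2 or limma. Ccl2 did not pass at a threshold of 0.01 (1.16, adjusted p-value 0.0118 by edgeR) and was too rare for a filter on a mean of 50 counts, which left 5 chemokines tested and 1 called. The threshold of 0.01 left 1 chemokine called and 2213 genes in all. Left-out libraries gave 1 to 4 called chemokines, beside 2658 to 4340 called genes in all. They gave log2 fold changes of 0.91 to 1.40 for Ccl2 and -0.68 to -0.28 for Ccl3. The values were 0.054 to 0.21 for Cxcl16 and 0.62 to 1.51 for Cxcl12, and fewer samples were fitted there. No chemokine changed direction. The 92 calls among the 156 tested genes of the companion lists ranged from 73 to 103, beside 3833 calls among all 14243 tested genes in the reported fit. Some single lists moved more. With a mean of 50 counts, 1 other chemokine of 3 tested was called and 1 neuronal gene of 3. At 0.01, 1 other chemokine, 2 NF-kB and 11 interferon genes were called, DESeq2 called 2 NF-kB genes, and without WT replicate 2 the astrocyte list had 11 calls. The median over all genes was 0.0029 with TMM and 0.016 with library size alone.

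The replicate block changed no chemokine's call (Ccl2 1.114, Cxcl10 1.23). After subtracting group means, same-numbered libraries correlated at 0.0693, 0.0604 and 0.0372, so no pairing was assumed. Depth limits Ccl7, Ccl12 and Cxcl1 most, with at most 16 counts in any library.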
